A study of Mus musculus with 8 samples.

Results

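The 9 genes described here are the haemoglobin genes and 2 red cell genes that were chosen by symbol from a table of 55681 genes: the embryonic globins Hba-x, Hbb-y and Hbb-bh1, the adult globins Hba-a1, Hba-a2, Hbb-bs and Hbb-bt, and Alas2 and Slc4a1. All 9 were found, each as 1 row. They were measured by RNA sequencing in 8 E15.5 mouse embryos of the C57BL6J background, as 1 library from each embryo's entire small intestine. The 4 libraries labelled cKO carry the genotype Slmapfl/fl with a Cre that the labels spell Derom-Cre and Dermo-Cre, and the 4 control libraries carry Slmapfl/fl without it. The floxed Slmap alleles are therefore shared by both groups. The series title places the deletion in the mesenchyme, and blood cells are not named as a target. The table does not say from which cells a transcript came, and fewer red cells cannot be told apart from less RNA per red cell.

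Haemoglobin is built from alpha-like and beta-like chains, and the mouse embryo changes both kinds as it grows. Primitive red cells arise in the yolk sac and carry the embryonic chains, and Hbb-bh1 is switched off in them before Hbb-y. Definitive red cells arise later in the fetal liver, carry the adult chains and lose their nucleus. Alas2 encodes the first enzyme of heme synthesis in erythroid cells, and Slc4a1 encodes band 3, the anion exchanger of the red cell membrane.

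The libraries held 15663837 to 17806397 reads, as recovered from the deposited values. Levels are in FPKM, fragments per kilobase of gene, scaled by a total for each library. That total was 0.969 (cKO 1) to 1.09 (control 3) times the library's summed reads. Slmap, the floxed gene, lay at 25.5 ± 1.40 FPKM in the libraries labelled cKO and 24.1 ± 0.916 FPKM in the controls (SD, n = 4 each; limma adjusted p = 0.570). That value sums every exon in whole tissue and does not check the labels, so each direction below follows the label of the library. In the libraries labelled cKO and controls 1 and 2, 23883 to 24071 genes had a read, while controls 3 and 4 had 25832 and 25934. Gut markers were present in every library, though not all at a high level. Barx1, which belongs to the same marker set, lay at 0.238 to 1.49 FPKM in the libraries labelled cKO and 0.0894 to 1.045 FPKM in the controls. Cdx2, an intestinal transcription factor gene, lay at 61.2 to 81.1 FPKM in the libraries labelled cKO and 52.8 to 91.6 FPKM in the controls, and the smooth muscle actin gene Acta2 lay at 419.8 to 606 FPKM in the libraries labelled cKO and 494.8 to 658 FPKM in the controls.

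The 250 bases before the start of 4 of these genes are printed because the results below contrast embryonic with adult chains of both kinds. The sequences are from RefSeq on GRCm38.p6, a different build from the GRCm39 of the expression table. They run 5′ to 3′ on the strand of the gene. RefSeq gave 7 of the 9 genes, all but Hbb-bh1 and Slc4a1.
Hbb-y, chr7:103853208-103853457, minus strand: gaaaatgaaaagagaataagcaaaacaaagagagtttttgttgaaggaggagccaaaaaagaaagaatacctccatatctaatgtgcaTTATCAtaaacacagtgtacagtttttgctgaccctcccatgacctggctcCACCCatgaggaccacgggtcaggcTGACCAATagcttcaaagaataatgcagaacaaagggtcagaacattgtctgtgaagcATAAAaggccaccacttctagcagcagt
Hbb-bs, chr7:103827929-103828178, minus strand: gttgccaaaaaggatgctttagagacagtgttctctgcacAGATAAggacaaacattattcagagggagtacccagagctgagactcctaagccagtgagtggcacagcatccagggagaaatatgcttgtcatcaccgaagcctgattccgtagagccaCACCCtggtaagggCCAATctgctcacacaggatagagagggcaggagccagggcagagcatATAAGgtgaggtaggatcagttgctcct
Hba-x, chr11:32276350-32276599, plus strand: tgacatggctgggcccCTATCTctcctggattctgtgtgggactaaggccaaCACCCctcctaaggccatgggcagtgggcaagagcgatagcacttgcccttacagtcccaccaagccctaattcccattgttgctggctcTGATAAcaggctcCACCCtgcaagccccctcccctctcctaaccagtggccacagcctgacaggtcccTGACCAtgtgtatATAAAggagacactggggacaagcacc
Hba-a1, chr11:32283422-32283671, plus strand: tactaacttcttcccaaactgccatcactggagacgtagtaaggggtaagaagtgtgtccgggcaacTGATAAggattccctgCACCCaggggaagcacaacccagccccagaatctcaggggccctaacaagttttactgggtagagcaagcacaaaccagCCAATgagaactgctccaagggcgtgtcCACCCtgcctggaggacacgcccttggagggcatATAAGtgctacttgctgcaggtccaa
Capitals mark letters that were searched for. These were CCAAT on both strands, with CACCC treated likewise, then the word TGACCA on both strands, a GATA word on both strands, which is the letters GATA with A or T before them and A or G after them, and a TATA-like word, ATAAA or ATAAG on the gene's own strand with a first base between positions -45 and -20, counted back from the start. In Hbb-y the word TGACCA overlaps CCAAT.

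The adult beta gene Hbb-bs and the embryonic gene Hbb-y both hold a CCAAT word, a CACCC word, a GATA word and a TATA-like word. TGACCA was found in the Hbb-y and Hba-x windows and in none of the other 5 windows. Over 32851 windows of the same length before RefSeq gene starts, CCAAT was found in 33.85%, CACCC in 52.0%, a GATA word in 26.5%, TGACCA in 11.4% and the TATA-like word in 7.08%. The windows of Hba-a1 and Hba-a2 were the same in 247 of 247 bases compared at an offset of 3 bases. The transcripts of these copies are also alike. Of the 505 stretches of 50 bases in the GENCODE M21 transcript of Hba-a2, 86.9% occur in Hba-a1, and 58.3% of 654 stretches of Hbb-bt occur in Hbb-bs. No such stretch of Hbb-y occurs in Hbb-bs, Hbb-bt or Hbb-bh1 (0 of 584), none of Hbb-bh1 in Hbb-bs or Hbb-bt (0 of 564), and none of Hba-x in Hba-a1 or Hba-a2 (0 of 752). How the counting split reads between Hba-a1 and Hba-a2, or between Hbb-bs and Hbb-bt, is therefore uncertain, while the embryonic transcripts share no stretch of 50 bases with the adult ones. Whether reads that fit both copies of a pair were counted at all is also unknown. The adult levels, and the shares and ratios below that use them, carry this limit.

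Adult globins made up nearly all of the globin RNA in both groups, and no globin gene separated the libraries labelled cKO from the controls. The 7 globins together took 0.0457%, 0.0846%, 0.0383% and 0.0396% of the reads in cKO 1 to 4, and 0.0586%, 0.0792%, 0.0295% and 0.0378% in controls 1 to 4. Mean shares were 0.0521% ± 0.0219 in the libraries labelled cKO and 0.0513% ± 0.0223 in the controls (SD, n = 4 each). The highest library was cKO 2 and the lowest was control 3, and their ratio was 2.87. The spread lay within the groups, not between them.

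Levels per length followed a fixed order among the most abundant genes. Hbb-bs had the highest mean over the 8 libraries at 347 FPKM, followed by Hba-a1 at 207.5 FPKM, Hbb-bt at 82.0 FPKM and Hba-a2 at 22.1 FPKM, and each of these stood above the next in 8 of 8 libraries. This is the order of the deposited values. The places of the 4 adult genes depend on how reads shared between copies were counted, which is unknown here. Hbb-y had a mean of 6.55 FPKM and Alas2 of 5.65 FPKM, but Hbb-y stood above Alas2 in only 1 of 8 libraries, cKO 2, so these neighbours are not ordered beyond their spread. Hba-x at 1.26 FPKM stood above Slc4a1 at 0.602 FPKM in 7 of 8 libraries, and Hbb-bh1 was lowest at 0.0941 FPKM.

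Hba-a1 (ENSMUSG00000069919, GRCm39 chromosome 11, 32233511 to 32234465), an adult alpha chain gene, lay at 189, 365, 149.8 and 172 FPKM in cKO 1 to 4, and at 249, 354, 73.8 and 108 FPKM in controls 1 to 4. The libraries cKO 2 and control 2 were high and controls 3 and 4 were low, and the groups overlapped. The log2 fold change, on the log2(FPKM + 1) scale used throughout, was 0.33 ± 0.49 (standard error; limma adjusted p = 0.732), with a 95% interval of the fold from 0.579 to 2.74. Its copy Hba-a2 (chromosome 11, 32246489 to 32247298) lay at 17.8, 40.9, 11.8 and 23.5 FPKM in cKO 1 to 4, and at 27.3, 33.2, 9.64 and 12.6 FPKM in controls 1 to 4. Its highest libraries were also cKO 2 and control 2, its lowest were control 3 and cKO 3, and the groups overlapped. The log2 fold change was 0.21 ± 0.45 (standard error; limma adjusted p = 0.827).

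Hbb-bs (ENSMUSG00000052305, chromosome 7, 103475741 to 103477303), which encodes the adult beta s chain, lay at 322, 526, 279 and 266 FPKM in cKO 1 to 4, and at 384, 497, 219.8 and 281 FPKM in controls 1 to 4. Its means were nearly the same, 348 ± 121 FPKM in the libraries labelled cKO and 346 ± 122 FPKM in the controls (SD, n = 4 each), and its log2 fold change was 0.02 ± 0.29 (standard error; limma adjusted p = 0.973). The 95% interval of the fold ran from 0.643 to 1.61. Hbb-bt (chromosome 7, 103461731 to 103463203), the adult beta t chain gene, lay at 76.9, 121, 60.1 and 57.5 FPKM in cKO 1 to 4, and at 96.1, 138, 46.3 and 60.5 FPKM in controls 1 to 4. Its log2 fold change was -0.05 ± 0.35 (standard error; limma adjusted p = 0.946).

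The embryonic beta-like gene Hbb-y (ENSMUSG00000052187, chromosome 7, 103500956 to 103502423) lay at 5.20, 29.6, 3.56 and 3.02 FPKM in cKO 1 to 4, and at 2.45, 4.15, 2.49 and 1.97 FPKM in controls 1 to 4. These values rest on 52, 338, 38 and 33 reads in cKO 1 to 4, and on 26, 42, 27 and 22 reads in controls 1 to 4. The library cKO 2 stood apart, at 5.69 times the next highest library, and the other 7 libraries overlapped. The log2 fold change was 1.06 ± 0.58 (standard error; limma adjusted p = 0.314), with a 95% interval of the fold from 0.836 to 5.19. Without cKO 2 it was 0.39 ± 0.22 (standard error; limma adjusted p = 0.273), with a mean of 3.93 ± 1.14 FPKM in the 3 libraries labelled cKO that were left and 2.77 ± 0.953 FPKM in the 4 controls (SD).

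The embryonic alpha-like gene Hba-x (ENSMUSG00000055609, chromosome 11, 32226400 to 32228116) lay at 1.35, 4.07, 0.632 and 0.925 FPKM in cKO 1 to 4, and at 1.02, 0.333, 0.499 and 1.27 FPKM in controls 1 to 4. It rests on 5 to 69 reads per library. Again cKO 2 was highest, at 3.02 times the next library, and the rest of the 2 groups overlapped. The log2 fold change was 0.51 ± 0.35 (standard error; limma adjusted p = 0.418), and 0.16 ± 0.23 without cKO 2 (limma adjusted p = 0.682). For the adult genes the ratio of cKO 2 to the highest of the other libraries was 1.03 for Hba-a1, 1.23 for Hba-a2, 1.06 for Hbb-bs and 0.878 for Hbb-bt.

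The other embryonic beta-like gene, Hbb-bh1 (chromosome 7, 103490844 to 103492371), was close to the limit of detection. It had 2, 4, 0 and 0 reads in cKO 1 to 4, and 0, 0, 0 and 2 reads in controls 1 to 4. The sums were 6 reads in the libraries labelled cKO and 2 in the controls, with exact 95% Poisson intervals of 2.20 to 13.1 and 0.242 to 7.22 that cover counting error only. A difference was not detectable at this depth. The other globin loci of the table were at or near 0. Hbb-bh0, Hbb-bh2 and Hbb-bh3 had no read in any library, and the theta genes Hbq1a and Hbq1b summed to 0 FPKM in the libraries labelled cKO and 0 to 0.345 FPKM in the controls.

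**Figure D1:**
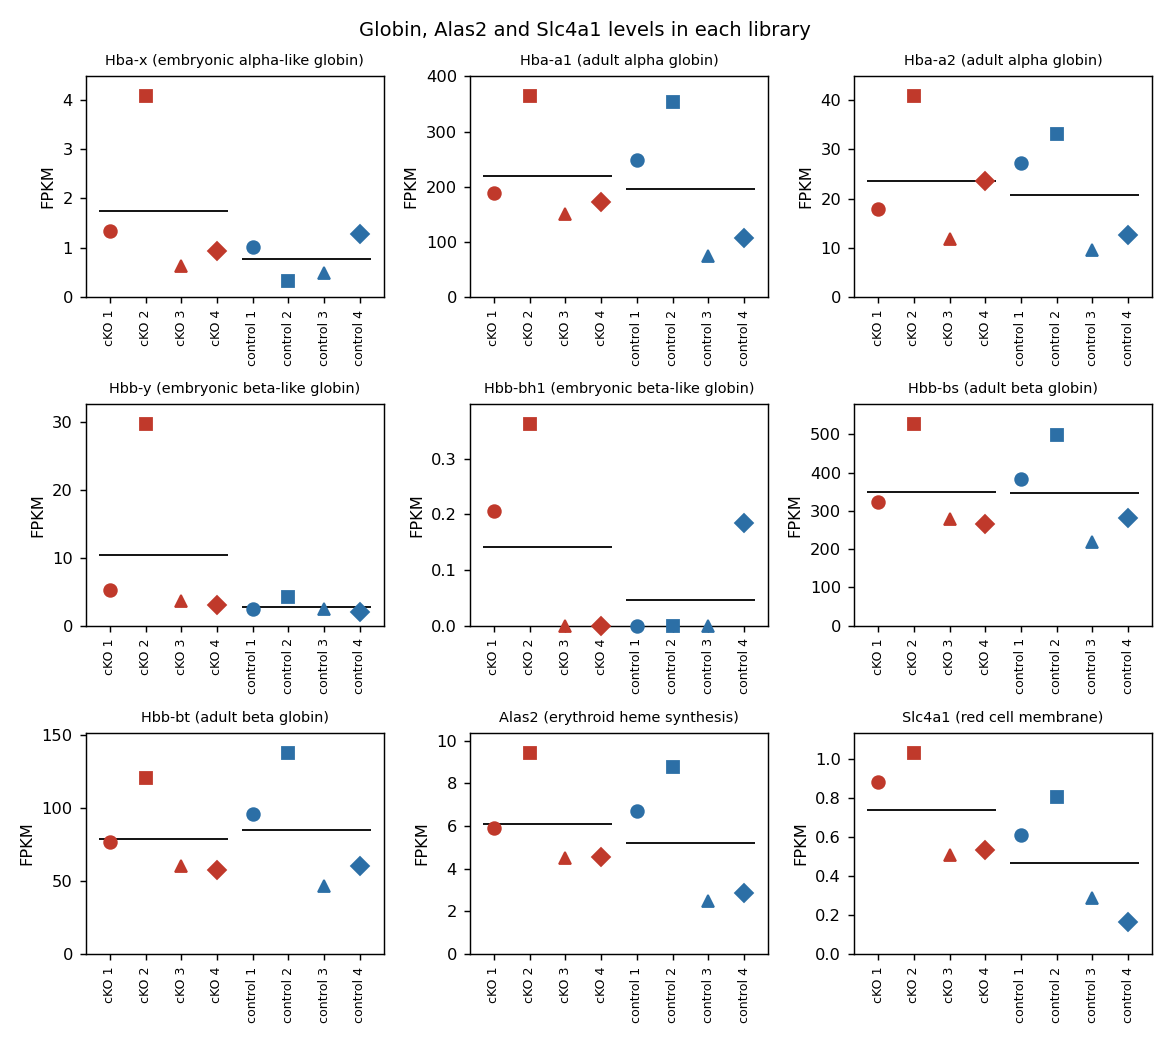
FPKM of each of the 9 genes in cKO 1 to 4 (red, left) and controls 1 to 4 (blue, right) on linear axes that start at 0, with the group mean as a black line and 1 marker shape per label number. Hbb-y in cKO 2 lies at 29.6 FPKM while the other 7 libraries lie between 1.97 and 5.20 FPKM, and the adult globins and Alas2 are lowest in control 3 with cKO 2 and control 2 on top.

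The embryonic share of the globins was compared within each library, which sets the amount of blood RNA aside. Hbb-y and Hbb-bh1 made up 1.34%, 4.43%, 1.04% and 0.923% of the beta-like FPKM in cKO 1 to 4, and 0.507%, 0.649%, 0.929% and 0.628% in controls 1 to 4. The share in cKO 2 was the highest, and cKO 4 lay just under control 3, so the groups overlapped by that 1 pair. Counted in reads, the share was 3.73% of 9164 beta-like reads in cKO 2 (exact Clopper-Pearson 95% interval 3.35% to 4.14%), against 0.425% to 1.12% in the other 7 libraries. The mean share was 1.93% ± 1.67 in the libraries labelled cKO and 0.678% ± 0.178 in the controls (SD, n = 4 each). The ratio of embryonic to adult beta FPKM was 2.36-fold higher on the log scale, which did not pass when all 70 assignments of libraries were enumerated (exact 2-sided permutation p = 0.0571; adjusted over the 8 ratios tested, p = 0.229). The smallest p that this design allows is 0.0286. Without cKO 2 the log2 difference was 0.72 (exact permutation p = 0.0857), against 1.24 with it.

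The embryonic share of the alpha-like globins did not follow the same order. Hba-x made up 0.648%, 0.995%, 0.389% and 0.471% of the alpha-like FPKM in cKO 1 to 4, and 0.367%, 0.0861%, 0.594% and 1.04% in controls 1 to 4. The highest share was in control 4 and the lowest in control 2, and the groups overlapped throughout (exact permutation p = 0.514; adjusted over the 8 ratios, p = 0.686). In reads, the share in cKO 2 was 1.17% (exact Clopper-Pearson 95% interval 0.910% to 1.48%) and that in control 4 was 1.22% (0.760% to 1.87%). The embryonic alpha to embryonic beta ratio was 0.218 ± 0.0758 in the libraries labelled cKO and 0.321 ± 0.226 in the controls (SD, n = 4 each; exact permutation p = 0.714).

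**Figure D2:**
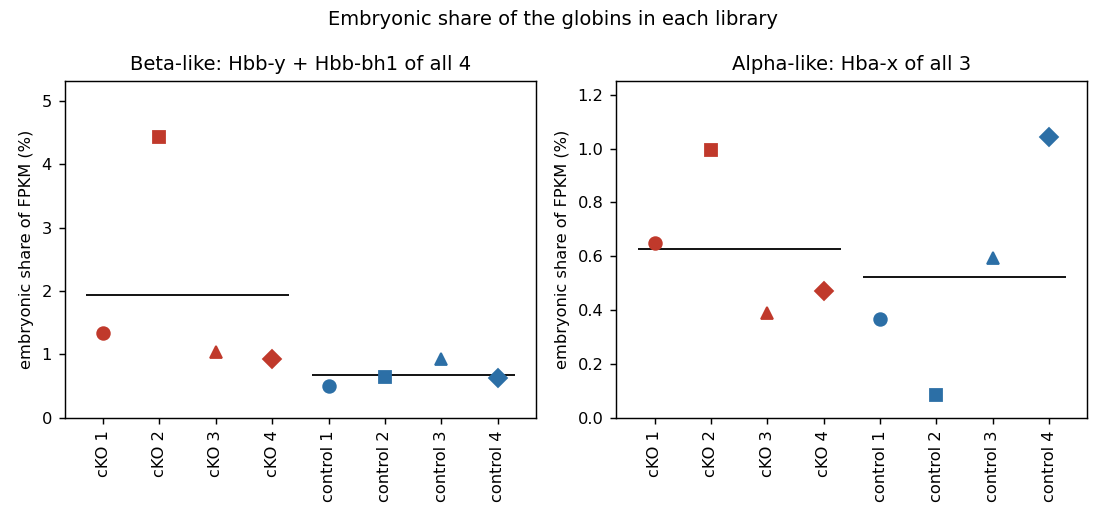
Embryonic share of beta-like globin FPKM (left panel) and of alpha-like globin FPKM (right panel) in percent, for cKO 1 to 4 (red) and controls 1 to 4 (blue), with the group mean as a black line. In the beta panel cKO 2 lies at 4.43% above all other libraries, and in the alpha panel control 4 lies at 1.04% beside cKO 2 at 0.995%.

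The balance of alpha to beta chains set controls 3 and 4 apart from the other libraries. The alpha-like to beta-like FPKM ratio was 0.515, 0.605, 0.473 and 0.601 in cKO 1 to 4, and 0.574, 0.606, 0.313 and 0.355 in controls 1 to 4. Every library labelled cKO lay below control 2 and above controls 3 and 4. Group means were 0.549 ± 0.0653 in the libraries labelled cKO and 0.462 ± 0.150 in the controls (SD, n = 4 each; exact permutation p = 0.343). Alpha-like transcripts have a GC content of 55.7% to 57.2% and beta-like transcripts of 46.8% to 51.3%, and the part of base composition in this ratio was not tested. The part of reads that fit both copies of an adult pair was not tested either. Hbb-bt made up 18.3% ± 0.767 of the adult beta FPKM in the libraries labelled cKO and 19.2% ± 2.01 in the controls (SD, n = 4 each; exact permutation p = 0.514).

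Alas2 (ENSMUSG00000025270, chromosome X, 149330371 to 149353634) followed the adult globins from library to library. It lay at 5.90, 9.43, 4.49 and 4.55 FPKM in cKO 1 to 4, and at 6.72, 8.77, 2.51 and 2.85 FPKM in controls 1 to 4. The order of the 8 libraries was the same as for the sum of the 4 adult globins. Pearson's r between them was 0.971 on the log2 scale (exact permutation p = 4.96e-05) and Spearman's rho was 1 (exact permutation p = 4.96e-05, the smallest that the permutations can give). Both were 0.000298 after adjustment over the 6 relations computed, and r was 0.943 without cKO 2 and control 2, the libraries farthest from the median. Within the groups r was 0.992 over the 4 libraries labelled cKO and 0.984 over the 4 controls. The group difference in Alas2 did not pass (log2 fold change 0.28 ± 0.36, limma adjusted p = 0.686). Without control 3 it was 0.0470 and without control 2 it was 0.54.

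Slc4a1 (ENSMUSG00000006574, chromosome 11, 102239650 to 102257029) lay at 0.880, 1.03, 0.509 and 0.532 FPKM in cKO 1 to 4, and at 0.609, 0.806, 0.287 and 0.162 FPKM in controls 1 to 4. These are 42 to 91 reads in the libraries labelled cKO and 14 to 63 reads in the controls. It also tracked the adult globin sum (Pearson's r = 0.818, exact permutation p = 0.0148; Spearman's rho = 0.905, exact permutation p = 0.00456; adjusted 0.0297 and 0.00913). Without cKO 2 and control 2, r was 0.688. Its level did not reach the mean of 1 FPKM required for testing. With no such filter its log2 fold change was 0.26 ± 0.17 (standard error; limma adjusted p = 0.610).

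Set against the globins of the same library, Slc4a1 was higher in every library labelled cKO than in every control. It stood at 1.44, 0.949, 1.01 and 1.02 FPKM per 1000 FPKM of globins in cKO 1 to 4, and at 0.801, 0.785, 0.814 and 0.349 in controls 1 to 4. The ratio was 1.67-fold higher in the libraries labelled cKO, at the smallest p that the design allows (exact permutation p = 0.0286), but not past the threshold over the 8 ratios (adjusted p = 0.229). The test was also missed without cKO 1 (log2 difference 0.61, exact permutation p = 0.114) and without control 4 (0.44, p = 0.0571), against 0.74 with all 8 libraries. A pseudocount of 1 FPKM gave 0.14 (exact permutation p = 0.600), but Slc4a1 itself had a mean of 0.602 FPKM. The added value outweighs that level, so this setting cannot decide whether the ratio differs. Without controls 3 and 4 the log2 difference was 0.46 (exact permutation p = 0.133). That comparison could not pass, because the smallest p that 4 against 2 libraries allow is 0.0667, so its p-value decides nothing. Every library labelled cKO still lay above controls 1 and 2. Alas2 per 1000 FPKM of globins was 8.97 ± 0.449 in the libraries labelled cKO and 7.66 ± 1.27 in the controls (SD, n = 4 each). That difference did not pass (exact permutation p = 0.114), and without control 1 it reached p = 0.0286 in the same test.

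The embryonic globins were set against the adult globin sum in the same way. Hbb-y against the adult globin sum had r = 0.647 (exact permutation p = 0.0600; rho = 0.643, p = 0.0962; adjusted 0.0899 and 0.144), and 0.282 without cKO 2 and control 2. Within the groups r was 0.994 over the 4 libraries labelled cKO and 0.729 over the 4 controls. Hba-x against the same sum had r = 0.416 (exact permutation p = 0.322; rho = 0.310, p = 0.462; adjusted 0.322 and 0.554), and 0.578 without the same libraries. Within the groups r was 0.995 in the libraries labelled cKO and -0.269 in the controls. The relation of Hba-x to Hbb-y rested on cKO 2 and cKO 1: r was 0.815 over all 8 libraries (exact permutation p = 0.0749; rho = 0.238, p = 0.582; adjusted 0.0899 and 0.582) and -0.768 without them. Within the groups r was 0.979 over the 4 libraries labelled cKO and -0.846 over the 4 controls, where Hba-x rests on 5 to 21 reads. Of the libraries labelled cKO, cKO 2 was the highest in Hba-x, in Hbb-y and in the adult globin sum. Differences between these correlations were not tested. All of these points share the scaling of their library.

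The level of the adult globins moved with the summed level of 12 vessel markers. The summed FPKM of 12 endothelial genes was 112 to 134 in the libraries labelled cKO and 91.4 to 155 in the controls, lowest in controls 3 and 4. Its correlation with the adult globin sum was r = 0.896 (exact permutation p = 0.00399; rho = 0.905, p = 0.00456; adjusted 0.0120 and 0.00913), and 0.778 without controls 2 and 3. The part of vessel content in the globin levels was not tested. All 12 endothelial genes had reads in all 8 libraries. Pecam1, an endothelial adhesion gene, lay at 14.3 to 16.4 FPKM in the libraries labelled cKO and 10.03 to 17.4 FPKM in the controls. Not every gene of the list followed the sum. Egfl7 was highest in controls 3 and 4, at 9.64 and 10.8 FPKM, against 7.985 and 8.91 FPKM in controls 1 and 2.

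**Figure D3:**
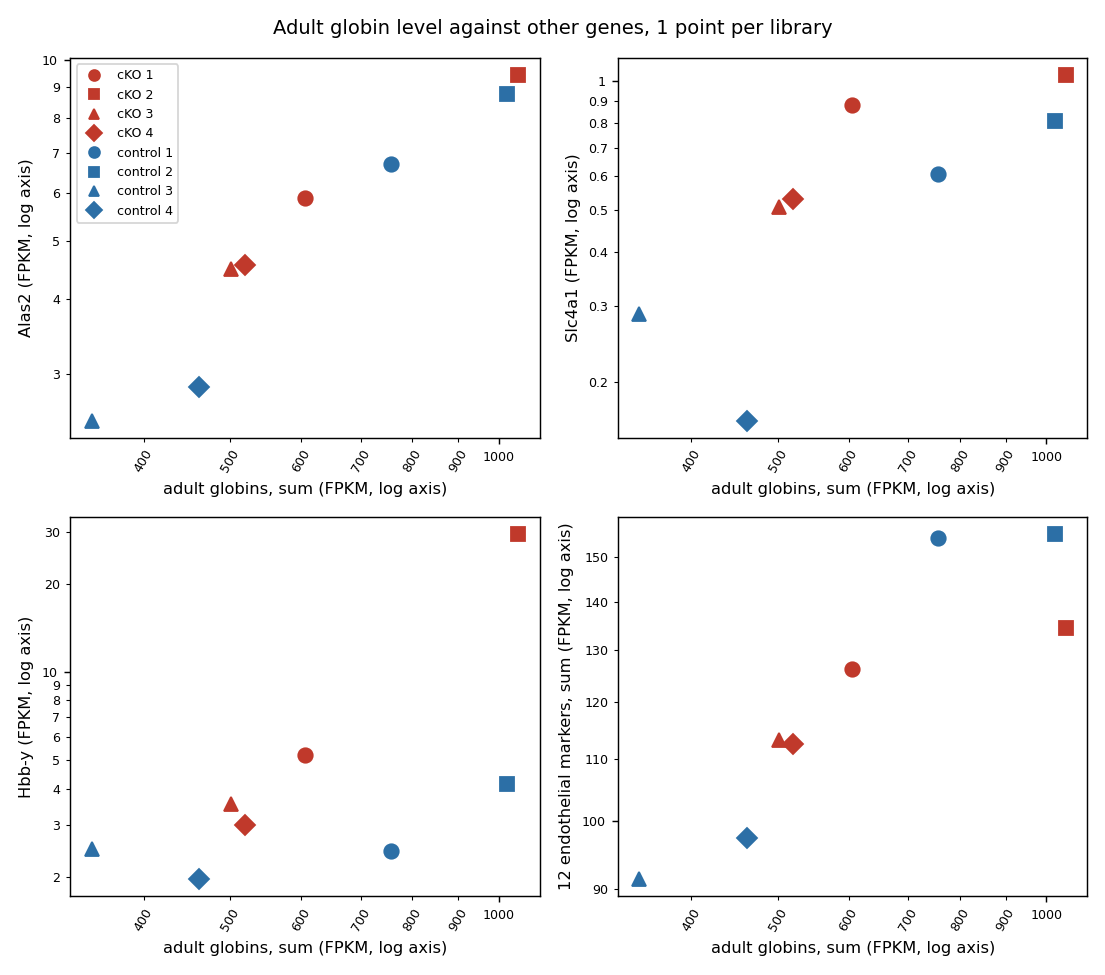
Sum of the 4 adult globins in FPKM (horizontal, log axis) against Alas2, Slc4a1, Hbb-y and the sum of 12 endothelial markers in FPKM (vertical, log axes), 1 point per library, with cKO in red and controls in blue. Alas2 keeps the library order of the adult globins (rho = 1), while Hbb-y in cKO 2 lies far above the rest at 29.6 FPKM.

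Across the table, 7 of the 9 genes passed the filter of a mean of at least 1 FPKM, and Slc4a1 and Hbb-bh1 did not. Of these 7, limma called 0 at an adjusted p of 0.05, where 0.0141% of the 14220 genes tested were called. At an unadjusted p under 0.05 it was also 0 of 7, against 22.5% of all genes tested, and limma-voom on the recovered reads called 0. The groups did not overlap for 0 of 7, where 15.4% of all genes tested did not overlap. The median log2 fold change was 0.28 over the 7 genes and -0.0016 over all genes tested, and 6 of 7 lay above 0, against 49.7% of all genes tested. The direction for Hba-a2 and Hbb-bs turned without cKO 2 (-0.10 and -0.19), and that for Hba-a1, Hba-a2, Hbb-bs and Alas2 turned when controls 3 and 4 were left out. The log2 fold change was then -0.53 for Hba-a1, -0.48 for Hba-a2, -0.38 for Hbb-bs, -0.61 for Hbb-bt and -0.34 for Alas2 (limma adjusted p of 0.271 to 0.506), while Hbb-y stood at 0.87 and Hba-x at 0.59.

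**Figure D4:**
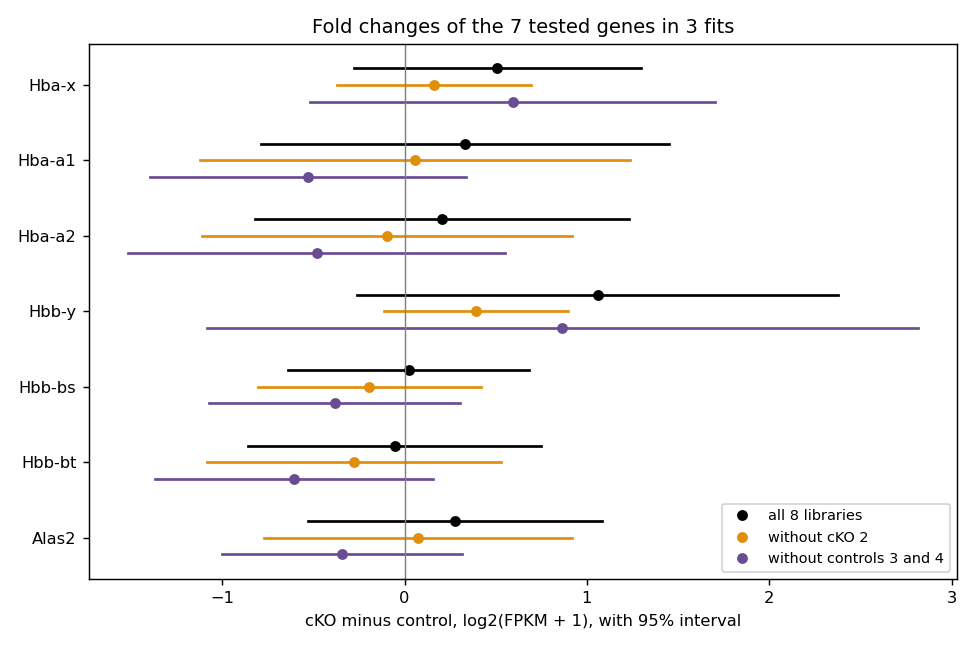
Log2 fold change of libraries labelled cKO minus controls with its 95% interval for the 7 tested genes, from all 8 libraries (black), without cKO 2 (orange) and without controls 3 and 4 (purple). Every interval includes 0, and the points of the adult globins and Alas2 lie below 0 without controls 3 and 4.

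Of 72 genes in the 6 lists of the rest of the red cell programme, 45 (62.5%) had a mean of at least 1 FPKM, but several markers that define red cells were low. Gata1, the erythroid GATA factor, lay at 0 to 0.159 FPKM in the libraries labelled cKO and 0.0480 to 0.180 FPKM in the controls, on 0 to 7 reads. Klf1, which activates adult beta globin, lay at 0.348 to 0.679 FPKM in the libraries labelled cKO and 0.530 to 1.36 FPKM in the controls. Of the 19 genes of the membrane and skeleton list only 6 were tested. Epb42, the gene of a membrane skeleton protein, lay at 0.160 to 0.440 FPKM in the libraries labelled cKO and 0.146 to 0.275 FPKM in the controls.

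Of 125 genes in 11 lists 74 were tested, and limma called 0 of them. At an unadjusted p under 0.05 there were 8 higher and 9 lower genes. Together these 17 are 23.0% of the 74, near the 22.5% of all genes tested, of which 12.6% were higher and 9.87% lower. In heme synthesis 0 of 8 genes were called, with 1 lower at an unadjusted p under 0.05 and a median of 0.02. That gene was Ppox, protoporphyrinogen oxidase, at 4.37 ± 0.714 FPKM in the libraries labelled cKO and 6.14 ± 1.52 FPKM in the controls (SD, n = 4 each; limma adjusted p = 0.202). Among iron uptake and heme genes 0 of 10 were called, with a median of 0.01, and 2 higher genes and 1 lower gene had an unadjusted p under 0.05. Blvrb, a biliverdin reductase gene, lay at 6.07 ± 0.819 FPKM in the libraries labelled cKO and 7.82 ± 0.442 FPKM in the controls (limma adjusted p = 0.102), without overlap. Tfrc, the transferrin receptor gene of dividing cells and erythroid precursors, lay at 73.6 ± 12.0 FPKM in the libraries labelled cKO and 58.0 ± 8.53 FPKM in the controls (limma adjusted p = 0.214).

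Regulators of globin switching had a median of 0.19 over 7 tested genes, of which 0 were called and 3 were higher at an unadjusted p under 0.05, where 12.6% of all genes tested were. These were Mbd2, a methyl-DNA binding protein gene, Myb and the nuclear receptor gene Nr2c1. Mbd2 lay at 25.4 ± 1.28 FPKM in the libraries labelled cKO and 20.6 ± 1.95 FPKM in the controls (limma adjusted p = 0.101), and Myb at 2.23 ± 0.165 FPKM in the libraries labelled cKO and 1.53 ± 0.462 FPKM in the controls (limma adjusted p = 0.165). Without controls 3 and 4 the log2 fold change fell from 0.29 to 0.19 for Mbd2 and from 0.37 to 0.14 for Myb. Bcl11a and Sox6 silence embryonic globins in red cells and are also expressed in other tissues. Bcl11a lay at 2.29 ± 0.259 FPKM in the libraries labelled cKO and 2.16 ± 0.167 FPKM in the controls (limma adjusted p = 0.751), and Sox6 at 3.01 ± 0.574 FPKM in the libraries labelled cKO and 2.42 ± 0.172 FPKM in the controls (limma adjusted p = 0.2996). Bcl11a was named for its role after its values were seen.

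Erythroid transcription factors, of which 4 of 8 were tested, had a median of -0.10 and 0 calls. Ldb1, a cofactor that bridges enhancers and promoters in many cells, lay at 18.8 ± 3.13 FPKM in the libraries labelled cKO and 25.3 ± 1.77 FPKM in the controls (limma adjusted p = 0.0897). Red cell membrane genes had a median of -0.09 over 6 tested genes and other red cell genes of 0.08 over 10, each with 0 calls and 0 genes at an unadjusted p under 0.05. Cat, the catalase gene, which the gut lining also expresses, lay at 87.9 ± 18.8 FPKM in the libraries labelled cKO and 70.3 ± 6.59 FPKM in the controls (limma adjusted p = 0.329). Without cKO 2, limma called 1382 of the 14220 genes tested and 0 of the 7 globin and erythroid genes tested. Of the 74 list genes tested it called 7, a share close to that over all genes. These included Cat (0.47, adjusted p = 0.0271), the heme synthesis gene Cpox (0.34, adjusted p = 0.0321), Ldb1 (-0.53, adjusted p = 0.0178), the endothelial gene Egfl7 (-0.53, adjusted p = 0.0271) and the leukocyte gene Tyrobp (-0.77, adjusted p = 0.0461), each given as a log2 fold change. Cpox was named after its values were seen.

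Markers of other cells that come with blood, or that lie near the gut, were described in the same way. Platelet markers summed to 8.09 to 9.42 FPKM in the libraries labelled cKO and 8.73 to 9.14 FPKM in the controls, with 1 of 10 tested and Gp1bb at 0 in all libraries. That gene was Pf4, a platelet chemokine gene also expressed by fetal macrophages, at 6.94 ± 0.721 FPKM in the libraries labelled cKO and 7.07 ± 0.387 FPKM in the controls (SD, n = 4 each; limma adjusted p = 0.879). Leukocyte markers had a median of -0.23 over 11 tested genes, of which 10 lay below 0, 0 were called and 5 were lower at an unadjusted p under 0.05. Of all genes tested, 50.3% lay below 0 and 9.87% were lower at that p. Lyz2, the macrophage lysozyme gene, lay at 9.71 ± 0.785 FPKM in the libraries labelled cKO and 12.5 ± 1.39 FPKM in the controls (limma adjusted p = 0.0964). Their sum was 70.3 to 89.9 FPKM in the libraries labelled cKO and 87.4 to 109 FPKM in the controls, and it did not share the low values of controls 3 and 4. Endothelial genes had a median of -0.09 over 11 tested genes with 0 calls. Hepatocyte markers had a median of 0.19 over 6 tested genes with 0 calls. Serpina1a, an alpha-1 antitrypsin gene, lay at 5.44 ± 2.13 FPKM in the libraries labelled cKO and 1.94 ± 1.19 FPKM in the controls (limma adjusted p = 0.127), without overlap. Alb, the albumin gene that defines hepatocytes, lay at 0 to 0.378 FPKM in the libraries labelled cKO and 0 to 0.150 FPKM in the controls, and Ahsg was at 0 in every library. Other genes of this list were present in every library. Ttr lay at 25.4 to 38.2 FPKM, Trf at 16.9 to 30.8 FPKM and Afp at 6.51 to 23.2 FPKM across both groups.

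**Figure D5:**
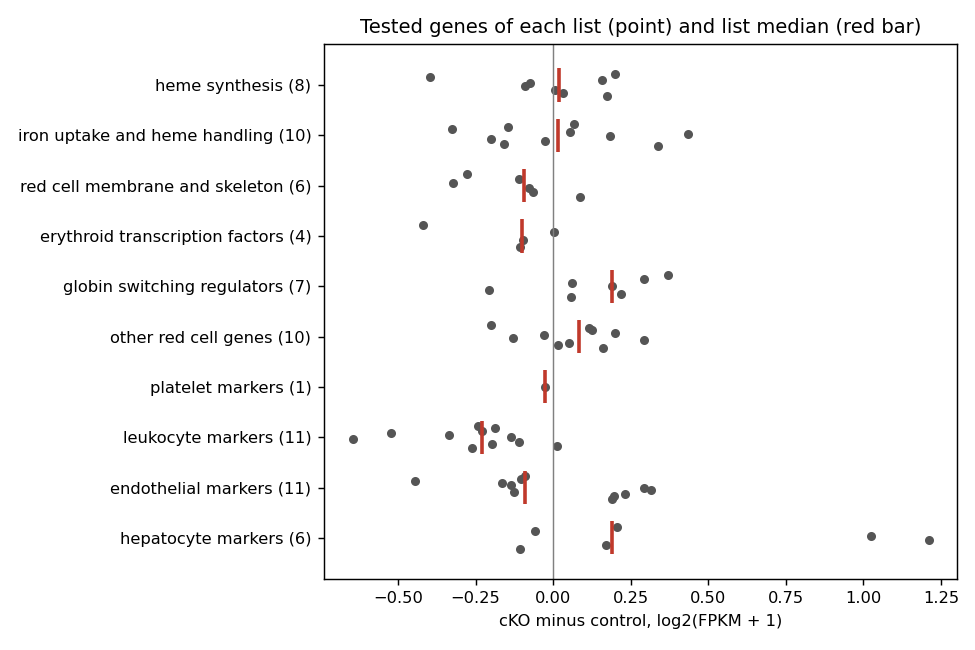
Log2 fold change of libraries labelled cKO minus controls for each tested gene of 10 lists (grey points) with the list median (red bar) and the number of tested genes in brackets. Medians lie between -0.23 for leukocyte markers and 0.19 for globin switching regulators and hepatocyte markers, and 0 of the points were called.

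Of 12268 protein-coding genes outside the 9, those most like the mean log2 level of the 4 adult globins over the 8 libraries were Galnt12 (Pearson's r = 0.989), Nelfcd (0.976), Bcl2 (0.976), Fgf13 (0.975) and Kif5c (0.974). Among these candidates 252 had r above 0.9. For the 3 embryonic globins the closest were Tspan6 (0.986), Nhs (0.968), TUSC3 (0.968), Peg3 (0.964) and Gstm5 (0.957), and 23 candidates had r above 0.9. These embryonic values lean on cKO 2. Its embryonic globin sum was 34.0 FPKM, against 2.99 to 6.76 FPKM in the other libraries. With 8 libraries and this many candidates, high values are found for many genes. Of the 10 genes, 0 belong to the red cell lists. Among the members themselves, r was 0.879 to 0.987 between pairs of adult globins, 0.915 to 0.987 between adult globins and Alas2, and 0.325 to 0.669 between adult globins and Hba-x or Hbb-y.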

How the data were processed

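RNA was measured in 8 libraries, 4 labelled cKO and 4 control. TRIzol RNA and the NEBNext Ultra kit were used, per the labels' protocols. Per the submitters' processing notes, CASAVA, fastp, HISAT2, featureCounts and DESeq2 1.20.0 were used with GRCm39; their settings, and whether strand was used, are unknown here. FPKM was deposited by the authors for 55681 genes; 3 further lines were blank and are not analysed here. FPKM times gene length, divided by its lowest value above 0 in each library, gave whole reads within 0.01 for 100% of the values above 0. Median-ratio factors of the deposited FPKM over genes without zeros were equal between libraries (1.0122 to 1.0123), so the values already carry such a scaling.

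limma 3.58.1 (R 4.3.3) with an intensity trend was run on log2(FPKM + 1) for the 14220 genes whose mean reached 1 FPKM, with Benjamini-Hochberg adjustment over all of them and a threshold of 0.05. Ratios and correlations were tested by exact permutation (scipy 1.17.1). The scripts were tested on simulated reads. No 2 libraries of a group were duplicates (chi-square per degree of freedom of at least 6.00). By that measure controls 1 and 2 (6.00) and controls 3 and 4 (11.7) were more alike than the control pairs across them (29.8 to 40.4). The labels give 1 intestine per library and name no litter, so the spread behind every p-value is that between these 8 embryos. The members, lists and tests were chosen with earlier results of these data known. Named genes are the 9 members, up to 4 members of each list of smallest p, the cell type markers and the 5 genes most like each globin class. Alternatives were scaling, pseudocount, filter, trend, weights, block, a sex term, GC content and length correction (GC found for 93.5% of genes, GENCODE M21), limma-voom and each library left out; fits without controls 3 and 4 and with a term for label numbers were added after the data were seen. Some genes of the lists are not reported here by name.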

Additional observations from a re-analysis of the deposited data

Results flagged for a closer look

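Among 78 groups of 4 values examined, 12 held a library whose gap to its nearest neighbour exceeded 0.829 of the range of the group. Chance gives about 1 in 20 for independent groups. Several of the groups here rest on the same reads, so the count of 12 cannot be set against that rate. The library cKO 2 stood apart in 7 of the 12. It was high in Hbb-y (29.6 FPKM), in the embryonic share of beta-like globins (4.43%), in the embryonic globin sum (34.0 FPKM), in the share of reads that were globin (0.0846%) and in Ldb1 (23.5 FPKM, close to the controls), and low in Hebp1 (11.9 FPKM) and Cat (59.95 FPKM).

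Control 4 stood apart in 3. It was high in Hbb-bh1 (0.185 FPKM) and in the Hbb-bh1 share of embryonic beta-like globins (8.58%), which rest on 2 reads with the other controls at 0, and low in Slc4a1 per 1000 FPKM of globins (0.349). In that ratio cKO 1 was high at 1.44. Serpina1a, a hepatocyte list gene, was low in control 3 at 0.160 FPKM, against 2.49 to 2.60 FPKM in the other controls.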

How the results depend on the processing

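The count of globin and erythroid genes called was 0 under every setting tried. In the settings other than a left-out library, 339 of 364 fold changes of 26 named genes kept their direction and their side of the threshold. Another 9 gained a call, 7 of them with array quality weights, among them Ldb1 (limma adjusted p = 0.0159), Egfl7 (0.0204), Mbd2 (0.0345) and Lyz2 (0.0346), and 2 with the term for label numbers. Without controls 3 and 4 the log2 fold change was -0.53 for Hba-a1, -0.48 for Hba-a2, -0.38 for Hbb-bs and -0.34 for Alas2. With array quality weights it was -0.25, -0.36, -0.32 and -0.14 in the same order of genes. The sign of Hbb-bs also turned with scaling by summed reads (-0.0474), limma-voom (-0.0479) and the sex term (-0.0751). That of Hbb-bt was 0.0309 after the GC and length correction, with and without the block, and that of Pf4 was 0.0359 in the same fits and 0.00938 with the sex term. Over left-out libraries the range was -0.0451 to 0.70 for Hba-a1, -0.10 to 0.48 for Hba-a2, -0.19 to 0.22 for Hbb-bs, -0.30 to 0.22 for Hbb-bt, 0.0470 to 0.54 for Alas2 and -0.0819 to 0.0102 for Pf4. The causes were not tested.

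For the ratios, given as log2 differences, the range over left-out libraries was 0.72 to 1.49 for the embryonic beta share, which passed only without cKO 4 (exact permutation p = 0.0286), -0.0574 to 1.15 for the embryonic alpha share, 0.13 to 0.45 for alpha over beta, -0.82 to 0.14 for embryonic alpha over embryonic beta, 0.14 to 0.32 for Alas2 over globins and 0.44 to 0.85 for Slc4a1 over globins. The Hbb-bh1 share, in percentage points, ranged from -1.74 to 1.26. Without controls 3 and 4 the difference was -0.11 for alpha over beta, 0.18 for embryonic alpha over embryonic beta, 1.26 points for the Hbb-bh1 share, 1.73 for the embryonic alpha share and -0.23 for the Hbb-bt share (exact permutation p = 0.0667 for both, the smallest that 4 against 2 allows), 0.0450 for Alas2 over globins and 0.46 for Slc4a1 over globins (exact permutation p = 0.133). A pseudocount of 1 FPKM, which outweighs the mean Slc4a1 level of 0.602 FPKM, brought Slc4a1 over globins to 0.14 (exact permutation p = 0.600). The relation of Hba-x to Hbb-y turned to -0.77 without the farthest libraries.

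Same-numbered libraries deviated together only weakly (correlations of 0.0690 to 0.326) and the labels name no litter, so the main fits used no block. The label numbers do carry some shared structure. With a term for numbers 1 and 2 against 3 and 4, the standard error fell from 0.49 to 0.29 for Hba-a1 and from 0.36 to 0.17 for Alas2. That fit also called 0 of the 7 globin and erythroid genes tested. With the replicate block, 0 of these genes were called, and Hbb-y, higher in 4 of 4 same-numbered pairs, had an unadjusted p of 0.0256 (limma adjusted p = 0.158; log2 fold change 1.06). With the block and the GC and length correction, 2 genes, Hbb-y (0.0233) and Alas2 (0.0433), had an unadjusted p under 0.05, with limma adjusted p = 0.378 and 0.382. The difference of Slc4a1 over globins was 0.74 with an exact sign-flip p of 0.125, the smallest that 4 pairs allow, and the embryonic beta share stood at 1.24 with the same p. Depth limits Hbb-bh1, Hba-x and Slc4a1, whose lowest libraries held 0, 5 and 14 reads. Over all genes, 0 higher and 2 lower were called as reported, against 1180 higher and 1029 lower with array quality weights (cKO 2 had the lowest weight, 0.329), 792 and 590 without cKO 2, 615 and 484 with a term for label numbers 1 and 2 against 3 and 4, 14 and 20 with quantile normalization, 12 and 19 with median-ratio scaling over the tested genes, 5 and 23 with summed-read scaling, 1 and 2 without controls 3 and 4, and 0 to 1 in each direction, or the 2 as reported with no trend, in the others.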
